A study of Mus musculus with 48 samples.

Results

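The mouse major histocompatibility complex, the H2 complex, lies on chromosome 17. Its members here are all captured regions of the deposited peak list on that chromosome whose start lies between 33500000 and 38500000 of the build mm10, chosen by position alone. There are 234 such regions of 95882 in all (0.244%). Captured DNA was measured in 4 sections of the intestine (duodenum, jejunum, ileum, colon) in 7 germ-free mice (GermFree) and 5 conventionalised mice (ConvR), with 1 library for each mouse and section (48 libraries). The mice of a group were separate animals, and the 4 sections of a mouse came from the same animal. No other treatment or allele, and no age or strain, is given for either group in the labels. The labels name the tissue only as intestine and its section, and captured DNA holds no expression markers by which that could be checked.

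The H2 complex holds the genes by which cells show peptides to lymphocytes. Class I molecules such as H2-K1 and H2-D1 present peptides from inside the cell to CD8+ T cells and are also ligands of natural killer cell receptors. The class Ib genes of the H2-Q, H2-T and H2-M families are relatives with narrower roles, and the H2-T3 product, the thymus leukaemia antigen, is known from intestinal epithelium. Class II molecules present peptides to CD4+ T cells, and between the class II and class I genes lies the class III stretch with complement and cytokine genes. In the assay a protein domain that binds methylated CpG pulled fragments out of sheared DNA for sequencing, so a higher count at a region means more captured methylated DNA. That amount depends on methylation and on how many copies of the sequence the genome holds, and the values are not methylation levels. In whole tissue, another mix of cells and another methylation within the same cells cannot be told apart.

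The promoter windows below are shown because they span the cases met in the complex: a class I promoter that touched a captured region, another class I promoter that did not, a class Ib promoter that lay wholly within one, and a cytokine and a peptide-processing gene for comparison. Each is the RefSeq promoter window of GRCm38.p6 (the same coordinates as mm10), with 250 bases before and 50 after the gene start, written 5′ to 3′ on the strand of the gene. Capitals mark every CG, the letters that the methyl-CpG-binding domain can capture when methylated. CG reads the same on both strands, and 94.57% of all 32851 RefSeq promoter windows hold at least 1 (93.21% of the 265 in the complex).
H2-K1: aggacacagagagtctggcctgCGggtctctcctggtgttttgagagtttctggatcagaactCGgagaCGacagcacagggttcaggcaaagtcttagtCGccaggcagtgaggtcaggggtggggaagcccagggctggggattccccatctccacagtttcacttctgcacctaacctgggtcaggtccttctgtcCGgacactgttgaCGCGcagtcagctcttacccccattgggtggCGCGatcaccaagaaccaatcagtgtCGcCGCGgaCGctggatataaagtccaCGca
H2-D1: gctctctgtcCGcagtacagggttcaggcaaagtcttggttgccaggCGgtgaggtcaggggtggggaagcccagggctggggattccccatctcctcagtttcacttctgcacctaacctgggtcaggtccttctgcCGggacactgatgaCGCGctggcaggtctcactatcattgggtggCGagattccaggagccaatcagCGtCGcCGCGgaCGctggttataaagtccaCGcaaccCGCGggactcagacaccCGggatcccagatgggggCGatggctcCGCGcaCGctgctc
H2-T3: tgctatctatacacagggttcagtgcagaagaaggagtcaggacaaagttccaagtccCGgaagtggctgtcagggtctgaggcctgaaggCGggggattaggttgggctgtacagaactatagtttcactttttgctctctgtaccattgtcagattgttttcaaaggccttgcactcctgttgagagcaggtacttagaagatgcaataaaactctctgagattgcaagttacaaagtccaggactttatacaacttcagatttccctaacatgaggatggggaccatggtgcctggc
Lta: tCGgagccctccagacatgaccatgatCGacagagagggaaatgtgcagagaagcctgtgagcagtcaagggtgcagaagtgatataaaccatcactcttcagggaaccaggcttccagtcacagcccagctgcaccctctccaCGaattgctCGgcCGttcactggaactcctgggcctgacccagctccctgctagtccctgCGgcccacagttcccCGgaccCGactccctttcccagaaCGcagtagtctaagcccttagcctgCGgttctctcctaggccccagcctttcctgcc
Psmb8: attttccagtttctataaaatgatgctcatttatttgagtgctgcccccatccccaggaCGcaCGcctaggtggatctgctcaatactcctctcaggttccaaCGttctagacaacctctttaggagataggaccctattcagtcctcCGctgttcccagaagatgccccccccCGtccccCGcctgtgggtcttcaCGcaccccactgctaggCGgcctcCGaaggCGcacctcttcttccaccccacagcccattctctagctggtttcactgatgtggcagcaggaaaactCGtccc
The H2-K1 window (chr17:34000298-34000597, minus strand) holds 14 CG, and 74 of its 300 bases lie in a captured region. The H2-D1 window (chr17:35262844-35263143, plus strand) holds 19 CG and lies in none, although a captured region ends 137 bp away. The H2-T3 window (chr17:36190102-36190401, minus strand) holds 2 CG and lies in a captured region over all 300 bases. The cytokine gene Lta, which encodes lymphotoxin alpha, has 10 CG in its window (chr17:35205302-35205601, minus strand), with 130 bases captured. Psmb8, a subunit of the immunoproteasome that cuts peptides for class I molecules, has 11 CG in its window (chr17:34197945-34198244, plus strand), and its nearest captured region is 1885 bp away. A window outside the captured regions says only that no region was called there.

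Across the complex, 14 of 265 promoter windows (5.28%) overlapped a captured region, against 8.57% of all promoter windows. The median number of CG was 7.5 in those that overlapped and 9.0 in those that did not. The captured promoters include those of Pou5f1, a transcription factor of pluripotent cells, and of Apom, a carrier of lipids in lipoproteins. None of the windows of class II, antigen processing, H2-Q, H2-M or olfactory receptor genes overlapped a region, which for the antigen processing list rests on 4 windows and for the H2-Q list on 5. The same held for the 27 windows of the extended class II flank, with a median of 22 CG. With 8.57% of all windows captured, lists this small can lack a captured window without that being a result about them.

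Most captured regions lay inside genes. Of the 234 regions, 139 (59.4%) lay in the body of a protein-coding gene, 55 (23.5%) outside annotated genes, 28 (12%) in another annotated gene such as a pseudogene, and 12 (5.13%) overlapped a promoter window. Regions were spread at 46.8 per Mb, against 47.1 per Mb on the rest of chromosome 17 and 39.4 per Mb over the autosomes. From the low to the high coordinates, the 5 successive Mb held 63, 82, 59, 16 and 14 regions. The longest stretch without a region (chr17:37483243-37860631) measured 377389 bp and holds 21 annotated genes, 17 of them olfactory receptors. In all the regions covered 510985 bp of the 5000000 bp window. Their median width was 1514.5 bp, against 1208 bp for all regions.

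Levels are given as CPM, counts scaled to library size with TMM factors. The highest level was at chr17:35245609-35262707, which starts inside Ddx39b, a helicase of mRNA export, ends just before H2-D1 and averaged 131 CPM. The next 3 regions by level all lay between H2-D1 and H2-Q2: 82.9 CPM at chr17:35289558-35300636, 79.8 CPM at chr17:35302511-35313056 over the pseudogene Gm18734, and 59.3 CPM at H2-Q1. These regions are wide. Per kb of width, the highest level was 13.9 CPM per kb at chr17:38001632-38002407, a region of 776 bp outside genes, whereas the median region of the complex had 6.25 CPM per kb and the median of all regions was 6.22. The median region held 18 counts in a library, which limits the precision of any 1 region. The class I and class Ib genes are families of similar copies. How reads that match several copies were counted is not stated, so the value of any 1 copy is uncertain.

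The complex as a whole took a like share of the counts in every group. In colon its share averaged 0.299% ± 0.00539 (SD) in the 7 GermFree mice and 0.301% ± 0.00454 in the 5 ConvR mice. In ileum the share was 0.297% ± 0.00905 in GermFree mice and 0.307% ± 0.0104 in ConvR mice. Library totals ran between 1007560 and 3033782 counts. ConvR mice 1 and 3 stood apart at Neu1 and, each in another section, at C4b. ConvR mouse 3 but not mouse 1 stood apart at Wdr46, the wide region before H2-D1 and the class I stretch described below. Values without both mice are also given for these places.

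GermFree and ConvR mice differed at 1 region of the complex. With the 4 sections of each mouse summed, 1 of 234 regions passed an adjusted p of 0.05 in edgeR's quasi-likelihood test with Benjamini-Hochberg adjustment over all regions of the genome, a share of 0.427% against 0.475% of all regions tested (0.0438% called lower). At an unadjusted p under 0.05 there were 21 regions (8.97%), against 6.63% of all. A called share this close to the background is no result about the complex. The region lies inside Neu1 (chr17:34933462-34935731), which encodes a lysosomal sialidase, in the class III stretch. It was lower in GermFree mice, at 12.1 ± 2.21 CPM against 19.5 ± 8.12 CPM in ConvR mice (SD, n = 7 and 5; log2 difference -0.62, SE 0.14; edgeR adjusted p = 0.0123).

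The summed Neu1 levels in GermFree mice ran between 9.01 and 14.5 CPM with a median of 11.2 CPM. ConvR mice 1 to 5 had 32.0, 14.7, 23.4, 13.3 and 14.01 CPM. ConvR mice 1 and 3 were the highest of the 12, and the other 3 ConvR mice lay close to the highest GermFree mice. In ileum, GermFree mice lay between 6.0 and 14.5 CPM (median 12.4), against 51.6, 15.2, 28.7, 11.3 and 16.2 CPM in ConvR mice 1 to 5. That difference was also called (log2 -0.88, SE 0.20; edgeR adjusted p = 0.0157), and the Neu1 region was the 1 region called of 209 tested there, 0.478% against 0.365% of all regions tested (0.0491% called lower). There 5 regions (2.39%) had an unadjusted p under 0.05, against 5.12% of all. In the duodenum, where it did not pass (log2 -0.56, SE 0.19; edgeR adjusted p = 0.400), ConvR mice 1 and 3 again were high, with 44.2 and 36.8 CPM. Without ConvR mice 1 and 3 the log2 difference was -0.23 in the sums (edgeR adjusted p = 0.943) and -0.34 in ileum, and the call was lost. Leaving out only ConvR mouse 1 or mouse 3 also ended it in the sums (edgeR adjusted p = 0.155 and 0.0881) and in ileum (edgeR adjusted p = 0.390 and 0.142), as did leaving out GermFree mouse 6 in ileum (edgeR adjusted p = 0.0906). With DESeq2 the log2 difference was -0.68 in the sums (adjusted p = 0.814) and -1.08 in ileum (adjusted p = 0.980).

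**Figure D1:**
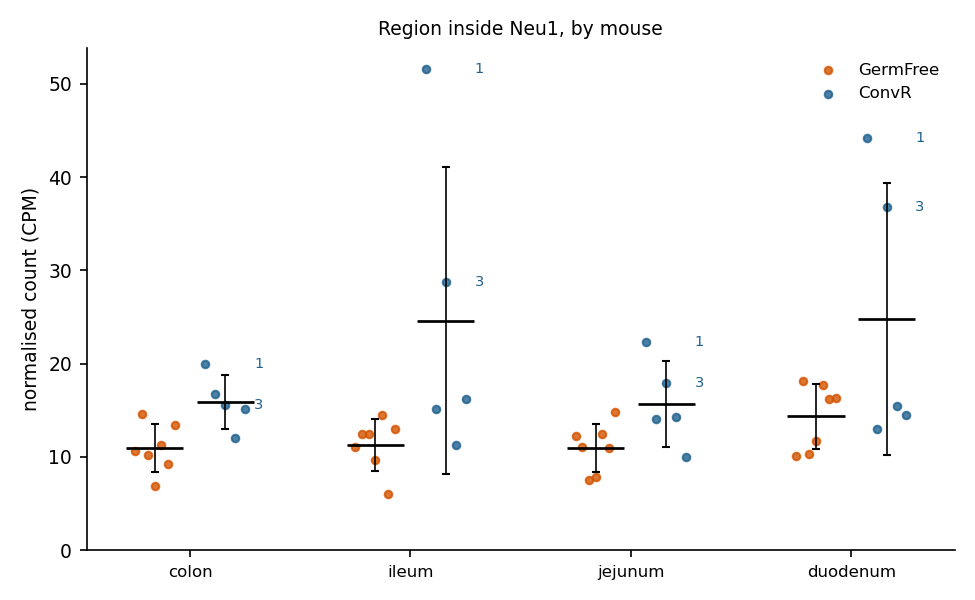
Normalised count in CPM of the region inside Neu1 by section, with each mouse as a point (GermFree orange, ConvR blue), the mean as a line and the SD as a bar. The numbers 1 and 3 mark ConvR mice 1 and 3, which reach 51.6 and 28.7 CPM in ileum and 44.2 and 36.8 CPM in duodenum, above every GermFree mouse there.

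In the other sections no region of the complex passed. In colon edgeR called 0 of 188 regions (33, or 17.6%, had an unadjusted p under 0.05, against 7.44% of all regions), where 0.542% of all regions were called. In jejunum it called 0 of 204 (13 unadjusted, 6.37% against 5.36% of all), where 0.343% of all were called. In duodenum it called 0 of 190 (25 unadjusted, 13.2% against 6.99% of all), where 0.463% of all were called. DESeq2 called 0 in each of these sections too. Among the regions nearest to a call in colon was H2-DMa, whose product helps load peptides onto class II molecules, at 5.86 ± 1.45 CPM in GermFree mice against 9.76 ± 2.45 CPM in ConvR mice (log2 -0.79, SE 0.22; edgeR adjusted p = 0.104). A region in H2-T10, a class Ib gene annotated as a transcribed pseudogene, had 5.15 to 6.61 CPM in the sums of GermFree mice. ConvR mice had 4.68, 4.07, 3.39, 4.84 and 4.97 CPM there. The share of all regions at which the groups separate in this way was not counted, so the separation is no result about H2-T10. The difference in the sums did not pass over all regions (log2 0.38, SE 0.13; edgeR adjusted p = 0.465).

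Summing counts over windows of 100 kb gave no model difference in the complex either. Of its 42 windows edgeR called 0, with 4 (9.52%) at an unadjusted p under 0.05 and 0 by DESeq2. Of all 19340 windows 0.517% were called and 7.33% had an unadjusted p under 0.05. A joint edgeR test of model by section called 0 of 234 regions (20 unadjusted, 8.55% against 4.95% of all). DESeq2 also called 0, and 0.0% of all regions were called. A missed threshold does not show that the groups were alike.

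Along the intestine, regions at class I genes and at several genes around them differed in opposite directions. Captured DNA was higher in colon than in ileum at regions of H2-D1, H2-Q1, H2-Q2 and H2-T3, and lower in colon at regions of Tapbp, Wdr46, Col11a2 and C4a. Over all 48 libraries edgeR called 16 of 234 regions between colon and ileum (6.84%), against 2.19% of all 95876 regions tested. Of these 10 were higher and 6 lower in colon (1.48% and 0.708% of all regions). In the complex 80 regions (34.2%) had an unadjusted p under 0.05, against 15.2% of all. With counts scaled to library totals alone the split was 6 higher and 7 lower. Between colon and duodenum 13 regions were called (5.56%), 10 higher and 3 lower in colon (6 and 4 with library totals), against 1.21% of all regions (0.91% higher, 0.3% lower). There 67 (28.6%) had an unadjusted p under 0.05, against 13.2% of all. Both comparisons use the same colon libraries. Neighbouring regions lie on the same stretch of DNA, so these counts do not stand for as many separate events, and the difference from the background shares was not tested.

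**Figure D2:**
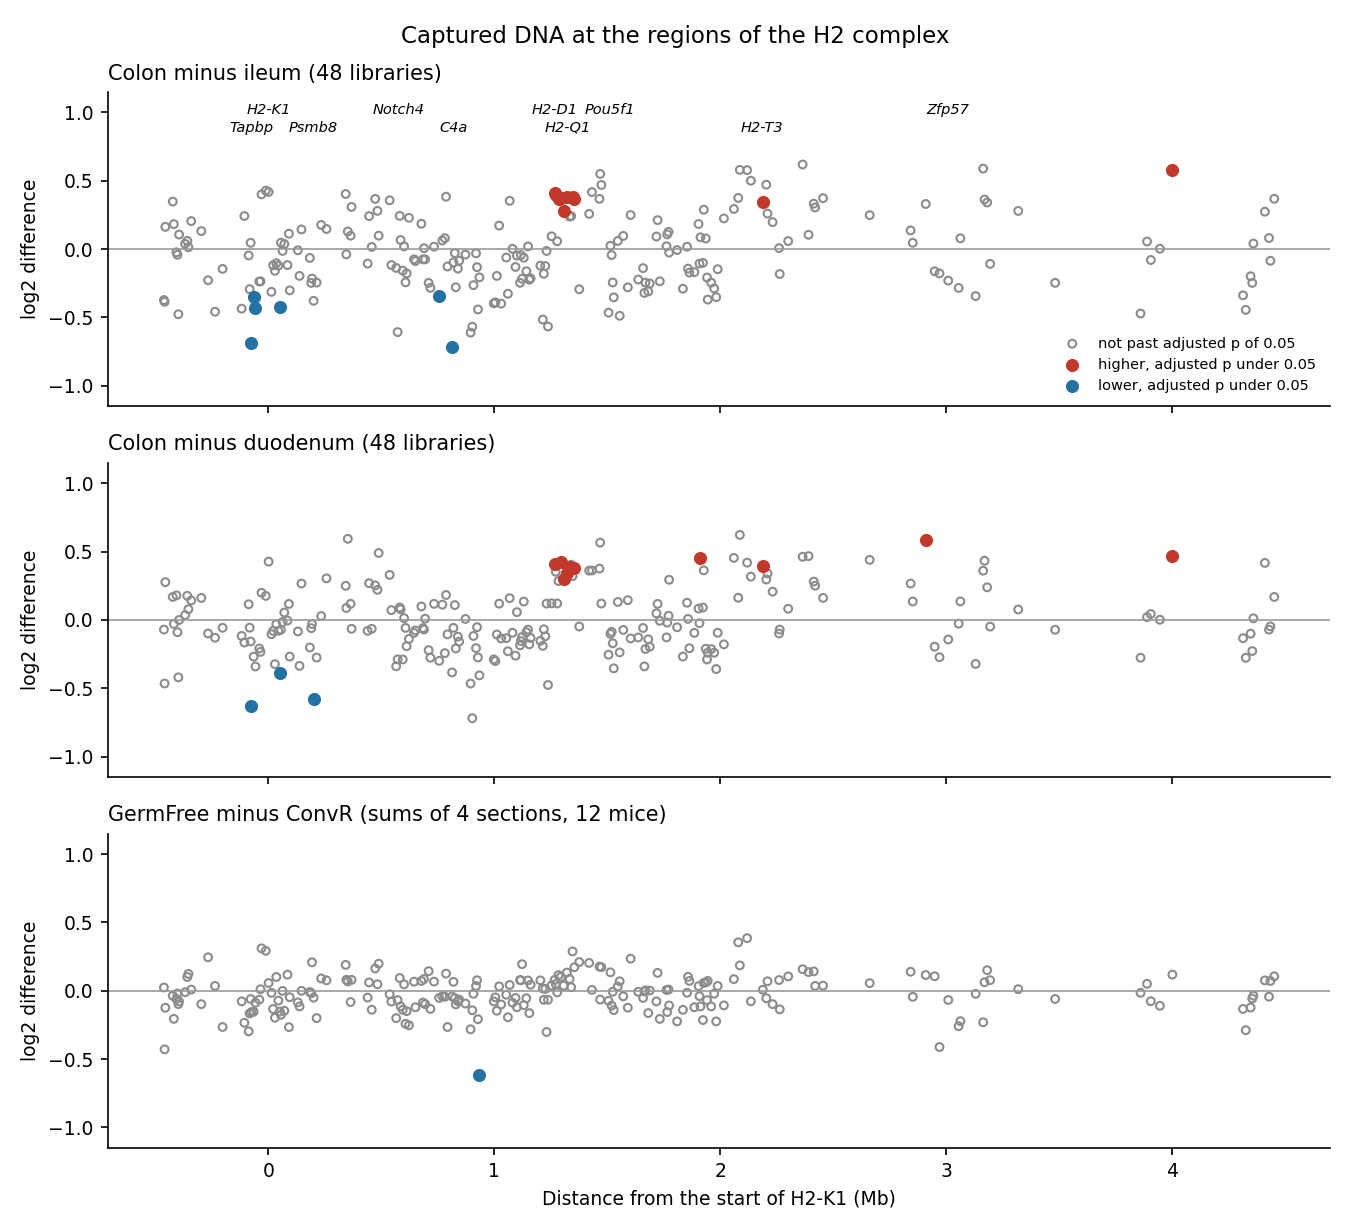
Log2 difference of each region of the complex against the distance from the transcription start of H2-K1 in Mb, with filled points where the adjusted p was under 0.05 (red higher, blue lower). Colon minus ileum has a run of 8 higher regions from H2-D1 to beyond H2-Q2, whereas GermFree minus ConvR has only the lower region in Neu1.

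The higher regions clustered. Of the 10 higher regions, 8 lay in a stretch of 91662 bp that runs between H2-D1 and Gm52319, a long non-coding RNA gene near H2-Q3 (chr17:35265364-35357025), a span set after the calls were seen and so given as a description. It holds 11 regions that cover 70.5% of it. All 11 had a positive difference in colon minus ileum, between 0.06 and 0.41 on the log2 scale, and all 11 in colon minus duodenum, between 0.12 and 0.43, with 6 called. Summed over the 11 regions, captured DNA averaged 551 ± 76.8 CPM in colon, 437 ± 73.5 CPM in ileum, 467 ± 55.3 CPM in jejunum and 432 ± 74.2 CPM in duodenum (SD, n = 12 mice). Colon was above ileum in 12 of 12 mice and above duodenum in 12 of 12. Of the 8 calls against ileum, only that at H2-D1 (chr17:35265364-35269401) stood whichever mouse was left out. The call at chr17:35283241-35286325 near the pseudogene Gm18733 (log2 0.37, SE 0.11; edgeR adjusted p = 0.0417) was lost for 9 of the 12 mice. Those at H2-Q2 and at chr17:35302511-35313056 in Gm18734 were lost for 8 each, at Gm52319 for 7, at the second region near H2-D1 (chr17:35271359-35273840) for 4, and at H2-Q1 and chr17:35289558-35300636 in Gm18734 for 3 each. Their log2 differences stayed between 0.24 and 0.45 in all these fits. Against duodenum the calls at H2-Q1, Gm52319 and chr17:35302511-35313056 were each lost for 8 mice.

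One mouse was low at this stretch. ConvR mouse 3 had the lowest sum of the 12 mice in colon (353 CPM), ileum (289 CPM) and duodenum (301 CPM), but not in jejunum (510 CPM). It was the lowest mouse at 10 of the 11 regions in colon. In colon the 7 GermFree mice had 543 to 653 CPM with a median of 578 CPM, and ConvR mice 1 to 5 had 543, 551, 353, 591 and 471 CPM. Only ConvR mice 3 and 5 lay below every GermFree mouse, and no region of the stretch was called between the models. Without ConvR mice 1 and 3 the sums averaged 571 ± 48.6 CPM in colon, 447 ± 61.2 CPM in ileum and 448 ± 66.6 CPM in duodenum (SD, n = 10).

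At the called region over H2-D1 itself (chr17:35265364-35269401), colon of GermFree mice had 39.2 to 55.1 CPM with a median of 44.1 CPM, and ileum of GermFree mice had 18.7 to 42.2 CPM with a median of 30.9 CPM. Colon of ConvR mice 1 to 5 had 40.6, 38.5, 25.4, 43.6 and 33.5 CPM, against 34.4, 30.0, 21.2, 34.2 and 33.8 CPM in their ileum. The ranges of the sections overlapped, while 10 of 12 mice were higher in colon. The means were 41.2 ± 7.38 CPM in colon and 30.5 ± 6.21 CPM in ileum (SD, n = 12; log2 0.41, SE 0.09; edgeR adjusted p = 0.00487). Against duodenum, with 30.4 ± 5.11 CPM, the log2 difference was also 0.41 (SE 0.09; edgeR adjusted p = 0.00913), a call lost without ConvR mouse 5 (edgeR adjusted p = 0.0637).

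H2-Q1 (chr17:35317599-35325901) is a class Ib gene of the Qa group. In GermFree mice it had 61.3 to 94.5 CPM in colon (median 76.8) and 33.0 to 73.6 CPM in ileum (median 58.1). In ConvR mice 1 to 5 it had 67.7, 67.0, 41.8, 75.1 and 58.5 CPM in colon, against 65.7, 50.5, 37.5, 52.1 and 52.6 CPM in ileum. Every one of the 12 mice was higher in colon, with means of 71.3 ± 13.7 CPM in colon and 54.5 ± 11.3 CPM in ileum (log2 0.38, SE 0.09; edgeR adjusted p = 0.0127). The call was lost without ConvR mouse 2, ConvR mouse 4 or GermFree mouse 4 (edgeR adjusted p = 0.0682, 0.0587 and 0.0787). Its neighbour H2-Q2 (chr17:35343746-35350087) averaged 48.1 ± 9.10 CPM in colon and 36.5 ± 9.34 CPM in ileum (log2 0.38, SE 0.11; edgeR adjusted p = 0.0386), a call lost without any 1 of 8 mice (edgeR adjusted p of 0.0523 to 0.138).

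H2-T3 (chr17:36185571-36192530), whose promoter window shown above lies wholly in the region, lies further on among the H2-T genes. In colon it had 42.7 to 53.5 CPM in GermFree mice (median 49.2), and in ConvR mice 58.7, 61.2, 33.6, 59.0 and 48.6 CPM. In ileum it had 26.0 to 59.5 CPM in GermFree mice (median 42.4), and in ConvR mice 36.4, 41.8, 19.997, 46.3 and 40.2 CPM. Most of the lowest values were in ileum, and ConvR mouse 3 was low in both sections. Colon was higher in 11 of 12 mice, with means of 49.9 ± 7.87 CPM in colon and 39.6 ± 9.94 CPM in ileum (log2 0.35, SE 0.09; edgeR adjusted p = 0.0174). Without ConvR mouse 1, ConvR mouse 2 or GermFree mouse 4 it did not pass (edgeR adjusted p = 0.0513, 0.0812 and 0.117). The difference from duodenum, with 38.9 ± 7.23 CPM, was 0.39 (SE 0.09; edgeR adjusted p = 0.0127), and 0.0677 was its adjusted p without ConvR mouse 5.

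H2-K1, the other classical class I gene, did not pass. Its region over the promoter and beyond (chr17:34000524-34002855) averaged 15.7 ± 4.00 CPM in colon and 11.9 ± 3.86 CPM in ileum, with 8 of 12 mice higher in colon (log2 0.42, SE 0.14; edgeR adjusted p = 0.101). The wide region before H2-D1 differed little, at 138 ± 13.7 CPM in colon and 128 ± 13.1 CPM in ileum (log2 0.09, SE 0.07; edgeR adjusted p = 0.579), and by 0.11 without ConvR mice 1 and 3 (edgeR adjusted p = 0.537). Of the 2 remaining higher regions outside the stretch, 1 was H2-T3 and the other was the dense region at chr17:38001632-38002407. That region had 13.6 ± 3.28 CPM in colon and 9.46 ± 2.86 CPM in ileum (log2 0.58, SE 0.14; edgeR adjusted p = 0.00959).

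**Figure D3:**
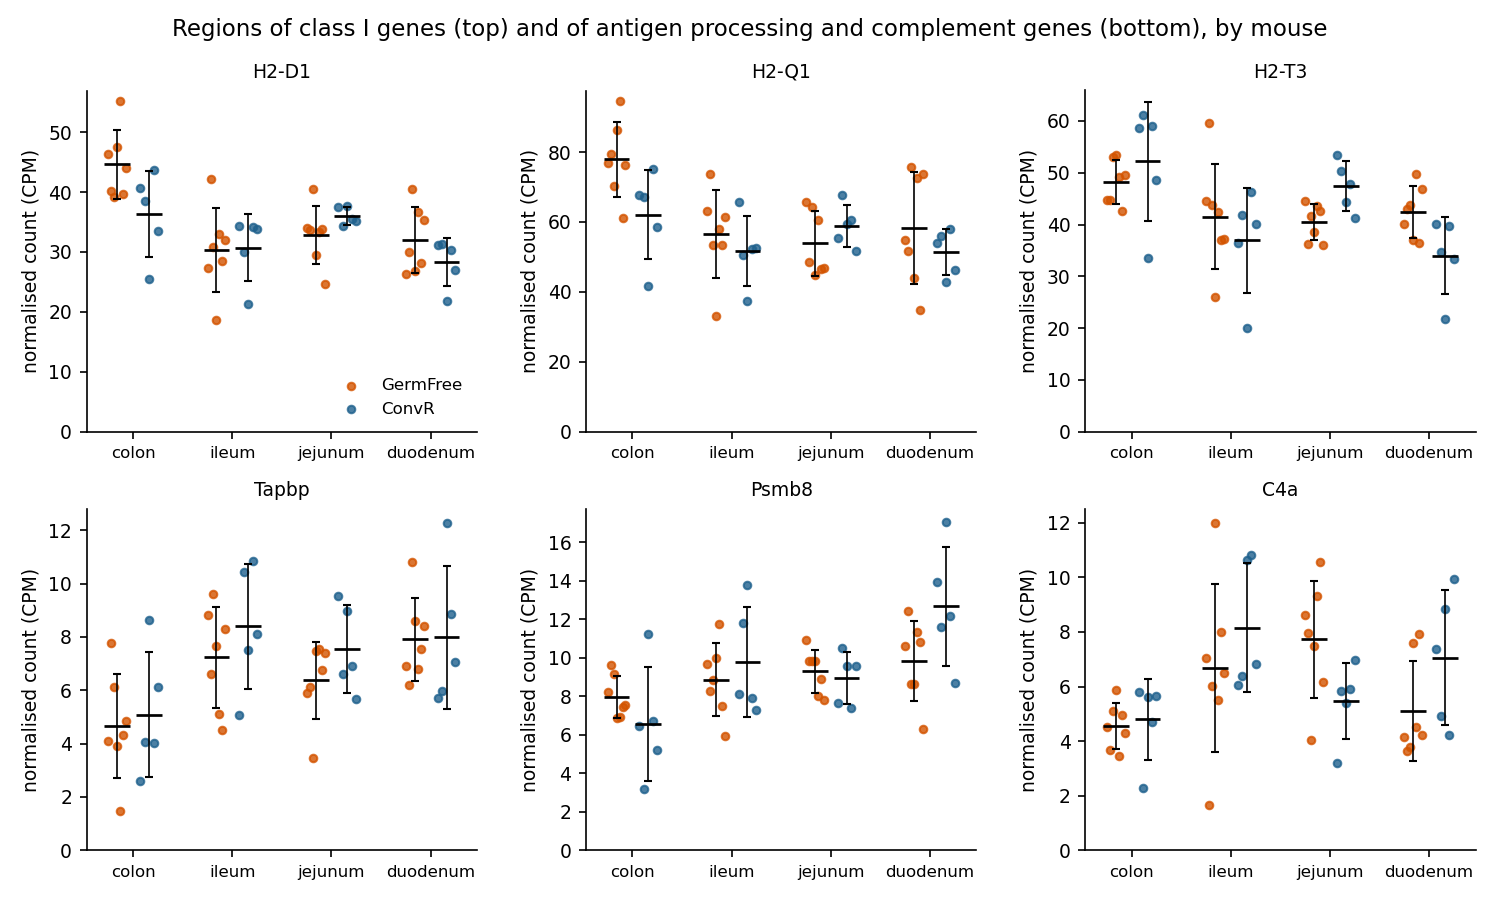
Normalised count in CPM by section for regions of H2-D1, H2-Q1 and H2-T3 (top) and of Tapbp, Psmb8 and C4a (bottom), with each mouse as a point, the mean as a line and the SD as a bar. In the top row colon is the highest section by mean of all mice (41.2 CPM at H2-D1 against 30.5 CPM in ileum), and in the bottom row it is the lowest (4.83 CPM at Tapbp against 7.71 CPM in ileum).

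Of the 6 lower regions, 4 lay on either side of H2-K1. Tapbp encodes tapasin, which holds class I molecules to the peptide transporter. Another region in Tapbp, at chr17:33921552-33922913, was not called. The called region (chr17:33925428-33926380) had 1.48 to 7.77 CPM in colon of GermFree mice (median 4.33) and 4.50 to 9.63 CPM in their ileum (median 7.66). ConvR mice 1 to 5 had 2.58, 4.08, 8.62, 4.03 and 6.14 CPM in colon, against 5.06, 10.44, 7.50, 10.8 and 8.12 CPM in ileum. Of the 12 mice, 2 were higher in colon. The means were 4.83 ± 2.03 CPM in colon and 7.71 ± 2.09 CPM in ileum (log2 -0.69, SE 0.17; edgeR adjusted p = 0.0153), and the call was lost without ConvR mouse 2, ConvR mouse 4 or GermFree mouse 4 (edgeR adjusted p = 0.106, 0.0738 and 0.0559).

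The adjoining region over Rgl2, an exchange factor for Ral GTPases, and Pfdn6, a prefoldin subunit, fell too, with 32.8 ± 5.99 CPM in colon and 41.7 ± 4.98 CPM in ileum (log2 -0.35, SE 0.08; edgeR adjusted p = 0.0103). At Wdr46, which encodes a nucleolar protein, the means were 11.1 ± 2.98 CPM in colon and 15.2 ± 3.92 CPM in ileum (log2 -0.43, SE 0.12; edgeR adjusted p = 0.0303). Without ConvR mice 1 and 3, of which mouse 3 was high at Wdr46 in colon, the difference there was -0.51 (SE 0.14; edgeR adjusted p = 0.0188). Col11a2, a collagen chain of cartilage, was lower in colon in 12 of 12 mice, at 14 ± 2.14 CPM against 19.2 ± 3.82 CPM in ileum (log2 -0.42, SE 0.11; edgeR adjusted p = 0.0148). In the class III stretch a region inside C4a, a complement C4 relative that the annotation lists as a transcribed pseudogene, had 4.66 ± 1.10 CPM in colon and 7.29 ± 2.80 CPM in ileum (log2 -0.72, SE 0.19; edgeR adjusted p = 0.0184). Another region in C4a, at chr17:34819232-34820120, was not called. The sixth lower region lay outside genes at chr17:34753979-34759163.

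Against duodenum, Psmb8 was the lower region of the antigen processing genes besides Tapbp. Its region (chr17:34200129-34201608) had 6.87 to 9.60 CPM in colon of GermFree mice and 6.32 to 12.4 CPM in their duodenum. ConvR mice 1 to 5 had 6.45, 3.17, 11.2, 6.71 and 5.19 CPM in colon, against 13.9, 11.6, 17.03, 12.1 and 8.66 CPM in duodenum. All 5 ConvR mice and 5 of the 7 GermFree mice were lower in colon, with means of 7.37 ± 2.08 CPM in colon and 11 ± 2.82 CPM in duodenum (log2 -0.58, SE 0.14; edgeR adjusted p = 0.0216). Higher in colon than in duodenum but not called against ileum were Gm8741, a pseudogene between H2-Q1 and H2-Q2, the mitochondrial ribosomal gene Mrps18b (17.4 ± 2.39 CPM in colon against 12.8 ± 3.09 CPM in duodenum; log2 0.45, SE 0.11; edgeR adjusted p = 0.0216) and Trim31, a ubiquitin ligase (12.1 ± 1.73 CPM in colon against 8.03 ± 2.41 CPM in duodenum; log2 0.58, SE 0.14; edgeR adjusted p = 0.0178).

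Grouped by gene list, the class I families stood on 1 side and most other groups on the other. A region counted for a list when it overlapped a listed gene or lay within 5 kb of it. In colon minus ileum, 4 of 4 regions of the classical class I list had a positive log2 difference (median 0.40, 2 called higher), as did 10 of 11 of the H2-Q list (median 0.37, 3 called higher), 3 of 3 of the H2-T list (1 called higher) and 2 of 3 of the H2-M list. Over all regions tested, 49.3% were positive and the median was -0.0037. The class II list, with H2-Ab1 and its partners, was mixed, with 5 of 9 positive and none called. The antigen processing list had 1 of 9 positive (median -0.25) and 2 called lower. The complement list had 1 of 5 positive and 1 called lower, and the cytokine list 0 of 6 positive with none called. The other class III genes had 11 of 51 positive with none called, the extended class II flank 12 of 27 with 4 called lower, and the class I framework genes 12 of 38 with none called. Of the 6 regions at olfactory receptor genes, 2 were positive and none was called. Of the 72 regions near no listed gene, 47 were positive, with 4 called higher and 1 called lower. The lists share 10 regions, so these counts overlap. The antigen processing list and the extended class II flank share 4, at Zbtb22, Tapbp and Rgl2, among them both called lower. The other class III genes share 2 with the complement list, 2 with the cytokine list and 1 with the classical class I list, which is the wide region that starts in Ddx39b. Ubd lies in the class I framework and olfactory receptor lists.

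**Figure D4:**
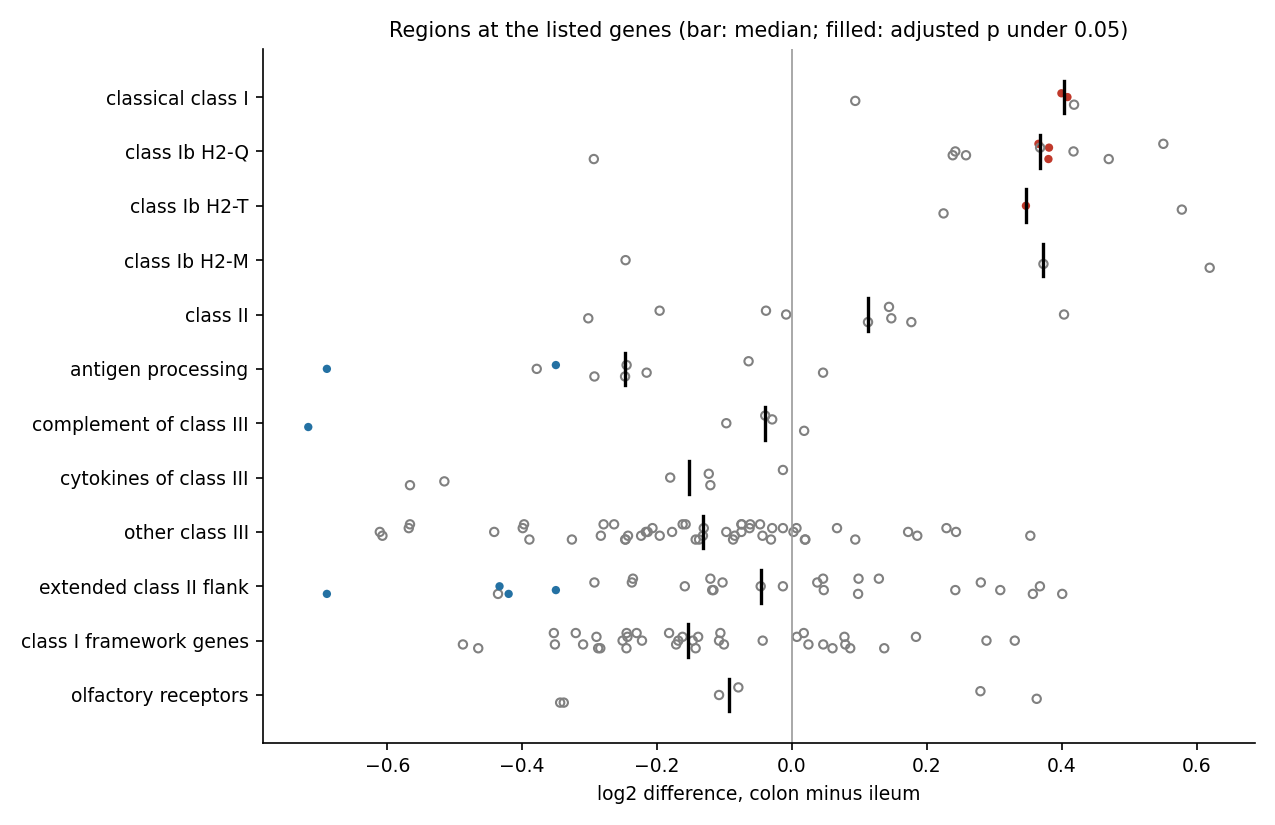
Log2 difference of colon minus ileum for each region at the genes of each list, with a bar at the median and filled points where the adjusted p was under 0.05 (red higher, blue lower). All called regions of the class I and class Ib lists are higher in colon, with medians of 0.40 for classical class I and 0.37 for H2-Q, and the median of the antigen processing list is -0.25.

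The sign also varied with the position of a region relative to genes. In colon minus ileum, 46 of the 139 regions in protein-coding gene bodies were positive (33.1%, median -0.12), against 47.4% of all 55980 such regions tested in the genome. Outside genes 38 of 55 were positive (69.1%, median 0.13), against 52.6% of all 29152. Regions in other annotated genes were positive in 18 of 28 cases (64.3%, against 50.7% of all), and those at promoter windows in 6 of 12 cases (against 47.2% of all). In colon minus duodenum the shares were 30.2% in protein-coding gene bodies (47.2% of all) and 63.6% outside genes (53.3% of all). The difference from the shares over all regions was not tested. Gene lists and position overlap, and their parts in the difference were not tested apart.

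Windows of 100 kb sum the counts of these same regions in the same libraries. They hold more counts than single regions and show the differences at coarser scale, but they are not separate evidence for them. Of 42 windows edgeR called 13 between colon and ileum (31.0%), 6 higher and 7 lower in colon, against 5.23% of all 19338 windows (3.08% higher, 2.15% lower). Against duodenum it called 8 (19.0%), 5 higher and 3 lower, against 3.51% of all windows (2.31% higher, 1.2% lower). The windows of the complex had a median of 50.6 CPM and all windows 32.5 CPM, so more counts stood behind each of them. The count against ileum was 5 without ConvR mouse 2, 6 without ConvR mouse 5 or GermFree mouse 4 and 7 without ConvR mouse 4. The count against duodenum was 1 without ConvR mouse 5, 2 without ConvR mouse 4, 3 without ConvR mouse 1 or GermFree mouse 6, and 5 without GermFree mouse 1 or 4. Of the 6 windows higher in colon than in ileum, 5 hold class I or class Ib genes. The window from H2-Q1 to H2-Q4 had 317 ± 44.3 CPM in colon and 254 ± 44.1 CPM in ileum, higher in 12 of 12 mice (log2 0.30, SE 0.08; edgeR adjusted p = 0.0202). The next window, whose 5 regions lie at or near H2-Q6 and H2-Q10 and in which no single region passed, had 67.0 ± 12.6 CPM in colon and 51.0 ± 9.59 CPM in ileum, again in 12 of 12 mice (log2 0.36, SE 0.10; edgeR adjusted p = 0.0199). A window with 4 regions, 1 at H2-T24, 1 near Gm6034 and 2 at or near H2-Bl, rose as well, with 38.4 ± 7.07 CPM in colon and 29.5 ± 5.27 CPM in ileum (log2 0.33, SE 0.09; edgeR adjusted p = 0.0282).

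None of the regions in the 7 lower windows belongs to a class I or class Ib list. By position, though, most of the gene H2-K1 and the transcribed pseudogene H2-K2 lie in a lower window. It is the window chr17:33900001-34000000, described last below. The window with regions at Ehmt2, Slc44a4, Neu1 and D17H6S56E-5 had 78.3 ± 8.91 CPM in colon and 93.7 ± 12.02 CPM in ileum (log2 -0.25, SE 0.06; edgeR adjusted p = 0.00561). It was lower in colon than in duodenum in 12 of 12 mice. The window with regions at Mucl3, Vars2, Gtf2h4 and Ddr1, a collagen receptor kinase, had 96.2 ± 7.67 CPM in colon and 111 ± 10.198 CPM in ileum (log2 -0.21, SE 0.05; edgeR adjusted p = 0.00708). The window with 10 regions from Daxx to beyond Vps52, Tapbp and Rgl2 among them, had 118 ± 19.2 CPM in colon and 139 ± 11.98 CPM in ileum (log2 -0.25, SE 0.05; edgeR adjusted p = 0.00469). The captured region at H2-K1 lies in the following window, which was not called (log2 -0.11, SE 0.04; edgeR adjusted p = 0.114).

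**Figure D5:**
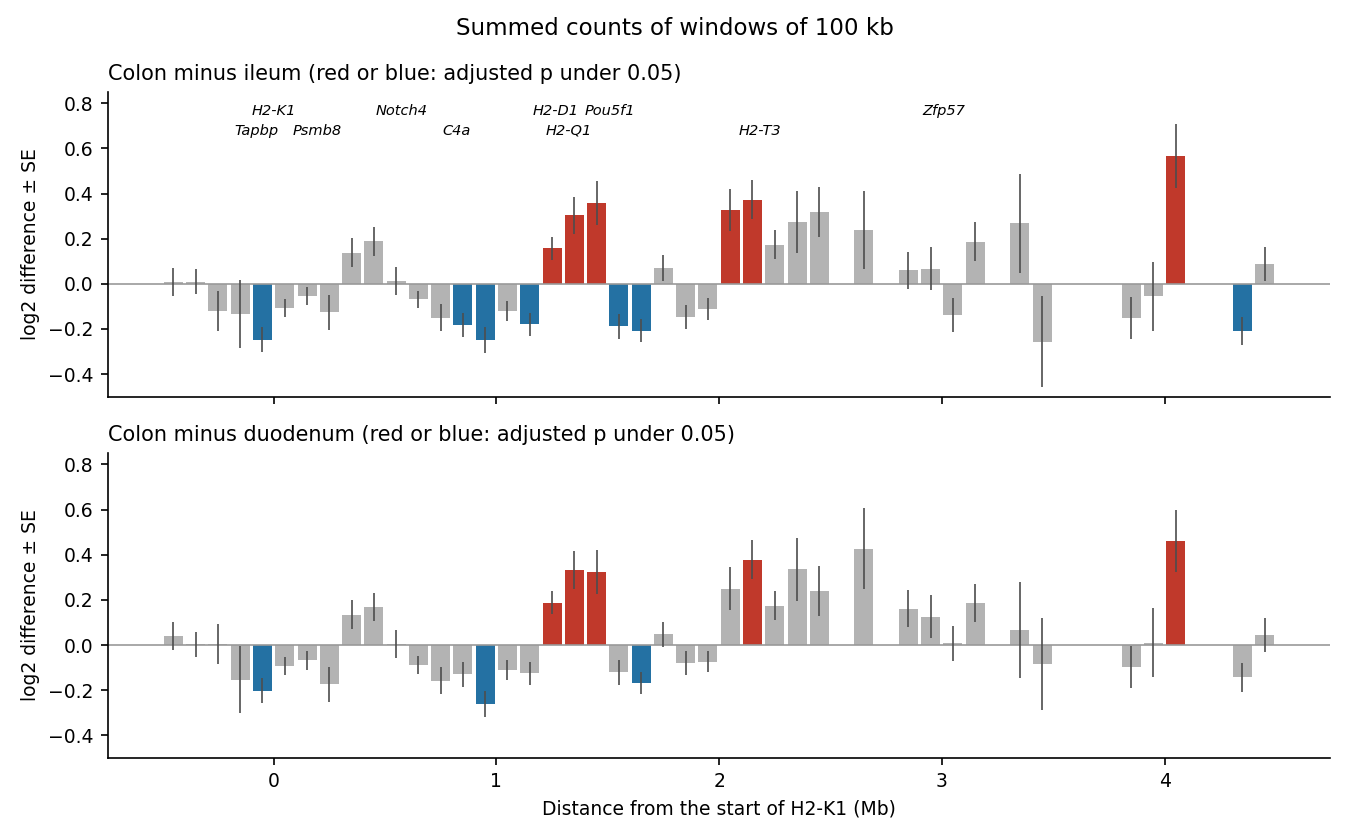
Log2 difference with its SE for windows of 100 kb against the distance from the transcription start of H2-K1 in Mb, with coloured bars where the adjusted p was under 0.05 (red higher, blue lower). In colon minus ileum the windows at H2-D1, H2-Q and H2-T genes reach 0.37 on the log2 scale. Called lower windows lie before H2-D1, between the H2-Q and H2-T genes, and at chr17:38300001-38400000 (-0.21). The next 4 windows with regions beyond H2-T3 are positive but not called (0.17 to 0.32). The tallest called window lies further on, at chr17:38000001-38100000 (0.57).

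Other genes fixed by name in the complex did not pass between colon and ileum. Notch4, a Notch receptor of endothelium, had 17.9 ± 3.71 CPM in colon and 15.5 ± 4.54 CPM in ileum (edgeR adjusted p = 0.285). The region shared by the tumour necrosis factor gene Tnf and Lta had 8.78 ± 1.58 CPM in colon and 9.40 ± 2.09 CPM in ileum (edgeR adjusted p = 0.741). C4b, which encodes complement C4, had 11.4 ± 2.56 CPM in colon and 11.1 ± 2.20 CPM in ileum (edgeR adjusted p = 0.970). Without ConvR mice 1 and 3 the log2 difference at C4b was -0.12 (edgeR adjusted p = 0.748), against 0.02 with them. Pou5f1 had 5.23 ± 2.26 CPM in colon and 6.95 ± 2.36 CPM in ileum (edgeR adjusted p = 0.180), and Zfp57, a zinc finger protein that keeps imprints, had 5.499 ± 1.72 CPM in colon and 6.35 ± 1.29 CPM in ileum (edgeR adjusted p = 0.585). No captured region lay within 5 kb of H2-Aa, H2-Eb1, H2-M3, H2-T23 or H2-Q7.

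No other pair of sections gave a call in the complex. Colon and jejunum differed at 0 of 234 regions in edgeR (33 at an unadjusted p under 0.05, 14.1% against 8.62% of all) and 0 in DESeq2, where 0.0% of all regions were called. At H2-Q1 the colon mean of 71.3 ± 13.7 CPM stood against 56.0 ± 8.14 CPM in jejunum (log2 0.30, SE 0.09; edgeR adjusted p = 0.268). Ileum and duodenum differed at 0 regions (9 unadjusted, 3.85% against 4.75% of all), with 0.00209% of all regions called. Ileum and jejunum differed at 0 (23 unadjusted, 9.83% against 6.76% of all), and jejunum and duodenum at 0 (16 unadjusted, 6.84% against 5.41% of all), with 0.0% of all called in each. These counts are by edgeR, and DESeq2 gave 0 in each. By its mean, jejunum lay between colon and the other sections at the class I stretch, without a call on either side.

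The counts changed with the mouse as a block and in fits of 1 model alone, which rest on fewer mice. With the mouse as a block, which pairs the sections of an animal, edgeR called 25 regions between colon and ileum (16 higher, 9 lower, against 3.6% of all regions), 24 between colon and duodenum (17 higher, 7 lower, against 2.44% of all) and 2 between colon and jejunum (0.338% of all). In GermFree mice alone 15 regions were called between colon and ileum (12 higher, 3 lower, against 1.55% of all), 1 between colon and duodenum (0.053% of all) and 11 between colon and jejunum (1.3% of all). In the 5 ConvR mice alone edgeR called 0 of 224 regions in each, with 24, 35 and 8 at an unadjusted p under 0.05 between colon and ileum, duodenum and jejunum. Over all regions in ConvR mice alone 0.0% were called in each, and 7.59%, 7.69% and 3.85% had an unadjusted p under 0.05. The joint test above gave no region where the models differed by section, so the lists of calls do not show a difference between the models.

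The count between colon and ileum also rested on single mice. It was 2 without GermFree mouse 4, 5 without ConvR mouse 2, 6 without ConvR mouse 5, 8 without ConvR mouse 4 and 10 without ConvR mouse 1. The count between colon and duodenum was 0 without ConvR mouse 5, 3 without ConvR mouse 1 or 4, 4 without GermFree mouse 6, 6 without GermFree mouse 2, 7 without ConvR mouse 2 or GermFree mouse 4, and 8 without GermFree mouse 1. Without ConvR mice 1 and 3, 18 regions were called between colon and ileum (10 higher, 8 lower), against 2.99% of all regions (1.8% higher, 1.19% lower). Between colon and duodenum 14 were called (13 higher, 1 lower), against 1.25% of all (0.882% higher, 0.37% lower). H2-D1, H2-Q1 and H2-T3 passed in both, whereas Col11a2 passed in neither (edgeR adjusted p = 0.0504 against ileum and 0.0685 against duodenum), Tapbp did not pass against duodenum (edgeR adjusted p = 0.0684) and the region near Gm18733 did not pass against ileum (edgeR adjusted p = 0.0826). At H2-D1 the difference between colon and ileum passed whichever mouse was left out. The calls at Rgl2 (without ConvR mouse 5, edgeR adjusted p = 0.0731), C4a, Col11a2 and chr17:38001632-38002407 against ileum were lost on leaving out 1 to 3 of the mice in turn, with adjusted p-values up to 0.0871. Those at Wdr46 and at chr17:34753979-34759163 were lost for 5 and 6 mice. Against duodenum, the calls at Mrps18b and Trim31 were lost for 4 mice each and those at Psmb8 and Gm8741 for 5 each, with adjusted p-values up to 0.103. Those at Col11a2, Tapbp and chr17:38001632-38002407 against duodenum were lost for 8, 9 and 9 mice, with adjusted p-values up to 0.2999.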

How the data were processed

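Counts were read from the deposited table, in which the authors give whole-number counts of reads per region for 95882 regions in 48 libraries, with no normalisation. Per the submitters' processing notes, Trim Galore 0.3.7, cutadapt 1.4.2, MACS2 and featureCounts were used with build mm10. Not given in the sources used here are the aligner, duplicate removal, multi-mapping rules and whether libraries were pooled to call peaks. Every region name begins with GermFree. If peaks came from GermFree libraries alone, regions higher in ConvR mice are under-represented. The deposited peak list gives the authors' score of each region, used only as a filter in an alternative.

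Counts were fitted over all regions with edgeR 4.0.16 in R 4.3.3 (TMM, default count filter, quasi-likelihood F-test, Benjamini-Hochberg adjustment, threshold 0.05). GermFree and ConvR mice were compared within each section and on sums of a mouse's 4 sections. The section comparisons used 1 fit of the 48 libraries, with 8 groups (model by section) and no term for the mouse. The median region held 18 counts in a library, so counting error is large for single libraries. Genes, names and promoter windows came from RefSeq, GRCm38.p6. Of 147 list entries 2 did not match a gene of the window. In each comparison the named regions were up to 10 called regions per direction, 1 per gene, with at least 1 CPM, or the 5 with the smallest p where fewer than 5 passed, and the region with the most CPM within 5 kb of each of 15 fixed genes. H2-T10, H2-DMa and the windows of 100 kb that are described were picked from these or after their values were seen. Members, lists and tests were chosen with earlier results of these data known.

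The 4 sections of a mouse come from the same animal and so pair the section comparisons. Their deviations after removing group means correlated with a median of 0.0254 (72 pairs of libraries). Alternatives were other scalings, DESeq2 1.42.0, no count filter, a score filter, blocks, 1 model alone, and leaving out mice; the fits of 1 model alone and of section differences in windows were added after seeing the data. The edgeR steps were run on simulated counts as a check of the code. Those counts had 1 fixed spread and no effect of the mouse, so they do not show how the tests perform on these data. Python 3.11.15 with pandas 2.3.3, NumPy 2.4.6 and Matplotlib 3.10.9 was used for annotation and figures.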

Additional observations from a re-analysis of the deposited data

Results flagged for a closer look

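In 28 regions described above, each group of mice in each section and in the sums was checked for a mouse far from the others, by whether its gap to the nearest mouse, as a share of the range of the group, passed Dixon's 95% critical value. This gave 13 such values in 280 groups (4.64%), and the check itself passes about 1 in 20 groups by chance.

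In jejunum of GermFree mice, mouse 3 stood low at Tapbp with 3.47 CPM against 5.90 to 7.55 in the others and high at H2-Q2 with 71.7 CPM against 29.5 to 46.0. Mouse 6 stood high at the region near H2-Ab1, over the long non-coding RNA Gm20506, with 14.4 CPM against 8.17 to 10.7. It was high there in ileum as well, with 13.5 CPM against 7.85 to 10.06. GermFree mouse 4 was low at Gm8741 in ileum, with 23.7 CPM against 39.5 to 51.4, and GermFree mouse 7 was low at Psmb8 in the sums, with 6.99 CPM against 8.92 to 10.19.

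The wide region that starts in Ddx39b had a mouse apart in 3 groups: GermFree mouse 5 in jejunum with 148 CPM against 121 to 131, ConvR mouse 2 in jejunum with 121 CPM against 134 to 138, and ConvR mouse 3 in ileum with 103 CPM against 132 to 142. ConvR mouse 3 was high in colon at C4b, with 17.2 CPM against 9.39 to 11.6, and at Wdr46, with 18.5 CPM against 9.92 to 12.2. ConvR mouse 1 was low at C4b in ileum, with 6.07 CPM against 11.1 to 12.5, and ConvR mouse 5 was low at Zfp57 in colon, with 2.36 CPM against 6.03 to 6.79.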

How the results depend on the processing

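Between GermFree and ConvR mice, the count in the complex of 1 in the sums was 0 with DESeq2 and 0 without ConvR mice 1 and 3, and likewise in ileum. Leaving out each mouse gave 0 to 1 in the sums, ileum and colon, 0 to 2 in duodenum, and 0 to 0 in jejunum, in windows and in the joint test. A block by mouse number (replicate block) or by the code in the titles left the counts at 1 in the sums and in ileum and at 0 in the other sections. Most mouse numbers found in both models go with a shared code in the titles, so both blocks group largely the same mice. Deviations of libraries with the same mouse number in the other model correlated with a median of -0.0106 over 20 pairs.

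Between colon and ileum the count of 16 moved to 25 with the replicate block (mouse) and to 0 in ConvR mice alone, and leaving out each mouse gave 2 to 23. Between colon and duodenum the count of 13 moved to 24 with the replicate block, to 1 in GermFree mice alone and to 0 in ConvR mice alone, and leaving out each mouse gave 0 to 18. Between colon and jejunum the count of 0 moved to 2 with the replicate block and to 11 in GermFree mice alone, with 0 to 4 on leaving out each mouse. The other section pairs stayed at 0 under every alternative run, leave-outs included (0 to 0). In windows of 100 kb the 13 called between colon and ileum became 8 with DESeq2 and 5 to 17 on leaving out each mouse, and the 8 between colon and duodenum 1 to 11. Fits with 1 model alone rest on fewer mice; for the other moves the cause was not tested. DESeq2 gave no adjusted p for 148 of 234 regions between colon and ileum and 184 between colon and duodenum. Of the 28 called results of named regions, 1 per gene, 141 of 524 alternatives (1 model alone left aside) no longer passed, and 0 of the called differences changed sign. Not among them are the calls at chr17:35271359-35273840 and chr17:35302511-35313056, nor alternatives that gave no adjusted p. Over the alternatives of all 195 single-region results, most of them not called, 3711 stayed on their side of the threshold, 176 of these with the opposite sign and none of those from a called result; 17 passed newly and 185 no longer passed.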
